A study of Homo sapiens with 30 samples.

Results

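The 40 genes described here carry the machinery of mitosis, and they were taken by name from 20090 protein-coding genes of the GENCODE annotation on GRCh37. They comprised 9 cyclins, kinases and a phosphatase that drive entry into mitosis, 9 genes of the spindle checkpoint and of the onset of anaphase, 7 centromere and kinetochore genes, 12 genes for motors, the spindle and cytokinesis, and 3 genes for transcription factors and chromosome structure. These roles are loose groups, and CDCA3 in particular is not an established checkpoint or anaphase gene. All 40 were found in the annotation. A gene was scored in each list by its best peak summit within 1000 bp of any of its transcription start sites. Since peak scores depend on sequencing depth, which is unknown here, the score was turned into a rank, expressed as the percentage of its own list that scored better, so that 0 is the best peak of a list and 100 the worst.

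The peaks were called from ChIP-Seq (sequencing of immunoprecipitated chromatin) of MDA-MB-231, a triple-negative human breast cancer cell line, grown in DMEM with serum and fixed with formaldehyde. In parental cells the libraries mapped SAP30, which belongs to the SIN3 corepressor complex, and both SIN3 scaffolds, SIN3A and SIN3B. Libraries of RNA polymerase II (Pol II), of trimethylated lysine 4 (H3K4me3) and of acetylated lysine 9 (H3K9Ac) on histone H3 were made from parental and SAP30-KO1 cells, in which latter SAP30 was knocked out with CRISPR/Cas9 and several knockout clones were mixed. Each of these 9 groups had 2 libraries, which gave 18 peak lists of 10861 to 54622 summits. The study speaks of biological samples or experiments, but whether the libraries of a group came from separate cultures is not stated, and their spread may then be technical. SAP30 itself was not mapped in the SAP30-KO1 cells, and the peak lists alone do not check the knockout. The mesenchymal genes VIM, CD44, AXL and ZEB1 all had Pol II and H3K4me3 in both parental libraries, whereas 0 of 4 luminal genes (ESR1, PGR, GATA3 and FOXA1) had Pol II and 3 of 4 had H3K4me3.

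Mitosis begins when cyclin B bound to CDK1 phosphorylates many substrates, and it ends when the anaphase promoting complex marks cyclin B and securin for destruction. The genes for these proteins are transcribed late in the cell cycle. In quiescent and early-cycle cells they are held off by the DREAM complex, whose MuvB core reads a short promoter element named the cell cycle genes homology region, and later the same core joins MYBL2 and FOXM1 as activators, with NF-Y on nearby CCAAT boxes. SIN3A and SIN3B are alternative scaffolds of a complex that holds histone deacetylases and SAP30, and SIN3B is known for its part in the silencing of cell cycle genes in quiescent cells.

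Promoter sequences of 33 members were found in the RefSeq table (GRCh38.p14), from 250 bases before to 50 bases after a start site. AURKA, TTK, BIRC5, TPX2, BUB3, UBE2C and FOXM1 had no entry there. Each of the 33 sequences occurred once, letter for letter, at its gene on GRCh37. For 31 of them the RefSeq start was the canonical GENCODE start, while it lay 326 bp away at AURKB and 510 bp away at CKAP2. Below stand the 120 bases before the start of 9 members, read 5′ to 3′ on the strand of the gene. They were chosen to show the arrangement of the elements in genes of several roles, with BUB1 and CCNA2 as promoters without an exact homology region. Capitals mark TTTGAA or TTTAAA (homology region) and CCAAT on either strand, so that TTCAAA and ATTGG are the same elements read from the other strand.
CCNB1: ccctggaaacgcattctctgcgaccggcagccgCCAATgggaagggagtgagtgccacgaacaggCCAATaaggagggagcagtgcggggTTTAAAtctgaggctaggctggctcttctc
CCNB2: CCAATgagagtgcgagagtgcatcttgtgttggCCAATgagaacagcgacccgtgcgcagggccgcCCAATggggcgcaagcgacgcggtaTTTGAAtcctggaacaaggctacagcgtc
CDC20: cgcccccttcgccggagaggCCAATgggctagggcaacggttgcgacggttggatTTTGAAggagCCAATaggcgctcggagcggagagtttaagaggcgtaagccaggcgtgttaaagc
PTTG1: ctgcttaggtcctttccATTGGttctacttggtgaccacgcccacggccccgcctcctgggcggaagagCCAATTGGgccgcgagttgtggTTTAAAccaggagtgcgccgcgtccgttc
CENPF: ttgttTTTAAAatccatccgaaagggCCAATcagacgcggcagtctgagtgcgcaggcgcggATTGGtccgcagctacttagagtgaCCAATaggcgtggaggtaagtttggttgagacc
KIF20A: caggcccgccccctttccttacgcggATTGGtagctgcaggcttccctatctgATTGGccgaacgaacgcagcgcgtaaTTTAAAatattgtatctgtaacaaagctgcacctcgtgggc
DLGAP5: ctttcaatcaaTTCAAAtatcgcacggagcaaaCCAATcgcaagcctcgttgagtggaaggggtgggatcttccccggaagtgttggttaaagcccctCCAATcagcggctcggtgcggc
BUB1: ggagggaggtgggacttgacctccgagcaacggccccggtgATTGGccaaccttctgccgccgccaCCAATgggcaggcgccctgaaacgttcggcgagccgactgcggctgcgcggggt
CCNA2: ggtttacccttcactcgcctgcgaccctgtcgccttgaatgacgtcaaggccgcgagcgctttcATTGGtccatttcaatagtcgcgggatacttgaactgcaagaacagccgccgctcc

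On GRCh37 these stretches lie at chr5:68462857-68462976 (plus strand) for CCNB1, chr15:59397225-59397344 (plus strand) for CCNB2, chr1:43824532-43824651 (plus strand) for CDC20, chr5:159848742-159848861 (plus strand) for PTTG1, chr1:214776418-214776537 (plus strand) for CENPF, chr5:137514681-137514800 (plus strand) for KIF20A, chr14:55658304-55658423 (minus strand) for DLGAP5, chr2:111435641-111435760 (minus strand) for BUB1 and chr4:122745039-122745158 (minus strand) for CCNA2. None of the 9 has the start site of another protein-coding gene inside the stretch shown.

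The homology region was present in 27 of 33 member promoters, against 20.1% of the 21537 promoters of protein-coding genes in the table, alternative starts included. The CCAAT box was present in 26 of 33, against 34.8%. Both elements stood together in 22 of 33 members, against 7.98% of all promoters. In 22 members a homology region lay between 70 bases before and 10 bases after the start, and the match nearest to the start had a median position of -23. The nearest CCAAT box had a median position of -54, upstream of the median of the homology region. In CCNB1, CCAAT boxes began at -87 and -55 and the homology region at -30. KIF20A had the same order, with CCAAT boxes at -94 and -67 and the homology region at -41. The order was not fixed. In CDC20 the homology region at -65 lay between CCAAT boxes at -100 and -55. In the stretches shown, CENPF and DLGAP5 had it upstream of their CCAAT boxes, at -115 and -109, with further matches at 40 and 3. CCNB2 held 4 CCAAT boxes and HMMR 5. An E2F site (TTTGGCGC, TTTGCCGC, TTTCGCGC or TTTCCCGC, either strand) was found in 2 of 33, at CDK1 and CENPA, against 4.14% of all promoters. CCNA2, AURKB, BUB1, NEK2, MYBL2 and CKAP2 had no exact homology region in the window, and MYBL2 and CKAP2 had no CCAAT box either. For AURKB and CKAP2 the window does not cover the canonical start. A palindromic TTTAAA was counted once, and overlapping CCAAT and ATTGG were counted separately. These matches are letters in a window and not measured binding sites.

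**Figure D1:**
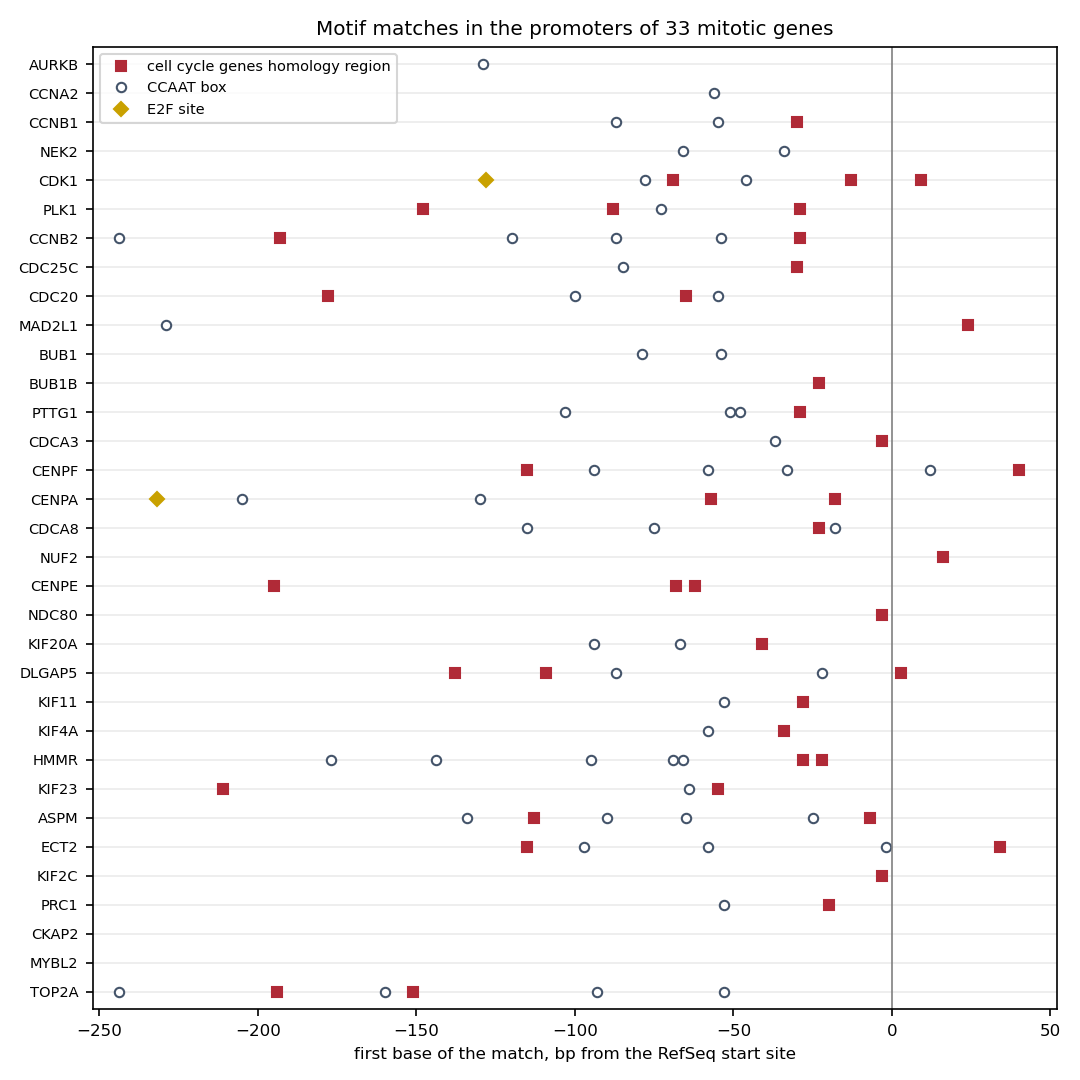
Positions of the 3 sequence elements in 33 mitotic promoters, with genes in rows ordered by role and, within a role, by SAP30 rank. The x axis gives the first base of each match in bp from the RefSeq start site, and 22 genes have a homology region (squares) between 70 bp before and 10 bp after the start, mostly with CCAAT boxes (circles) upstream of it.

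SAP30 occupied the promoter of every member. All 40 had a SAP30 peak in both parental libraries, against 61.2% of protein-coding genes and 97.5% of the 11591 genes that had Pol II in both parental libraries. Presence was thus near the share of other genes with Pol II, and the ranks lay further from theirs. The median SAP30 rank of the members was 1.54% in replicate 1 and 1.44% in replicate 2, against 17.2% and 17.6% over all genes with a SAP30 peak and 15.5% and 16.0% over those that also had Pol II. In the best 10% of both SAP30 lists were 35 of 40 members, against 14.7% of protein-coding genes and 25.1% of those with Pol II.

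SIN3A was found at 39 of 40 members in both libraries, against 31.5% of protein-coding genes and 53.8% of those with Pol II. Its median rank at the members was 5.17% and 8.87%, against 37.0% and 37.5% over all genes with a SIN3A peak. SIN3B was also found at 39 of 40, against 51.7% of protein-coding genes and 87.5% of those with Pol II, with a median rank of 7.89% and 12.04% against 20.6% and 21.3%. The best 10% of both lists held 14 of 40 members for SIN3A, against 3.13% of protein-coding genes and 5.32% of those with Pol II. For SIN3B they held 16 of 40, against 10.7% and 18.4%. All 3 proteins were present in both libraries at 38 of 40 members, against 30.2% of protein-coding genes and 51.8% of those with Pol II. These shares describe the list and were not tested, since genes are not replicates.

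No member had SIN3B in both libraries and SIN3A in neither, a state found in 9.13% of protein-coding genes and 14.9% of those with Pol II. At this count of 0 there was no test to apply. With a window of 500 bp BUB3 entered this state, because its SIN3A summits lay 610 and 664 bp from the nearest start, and its SAP30 summits at 598 and 633 bp were lost with them.

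**Figure D2:**
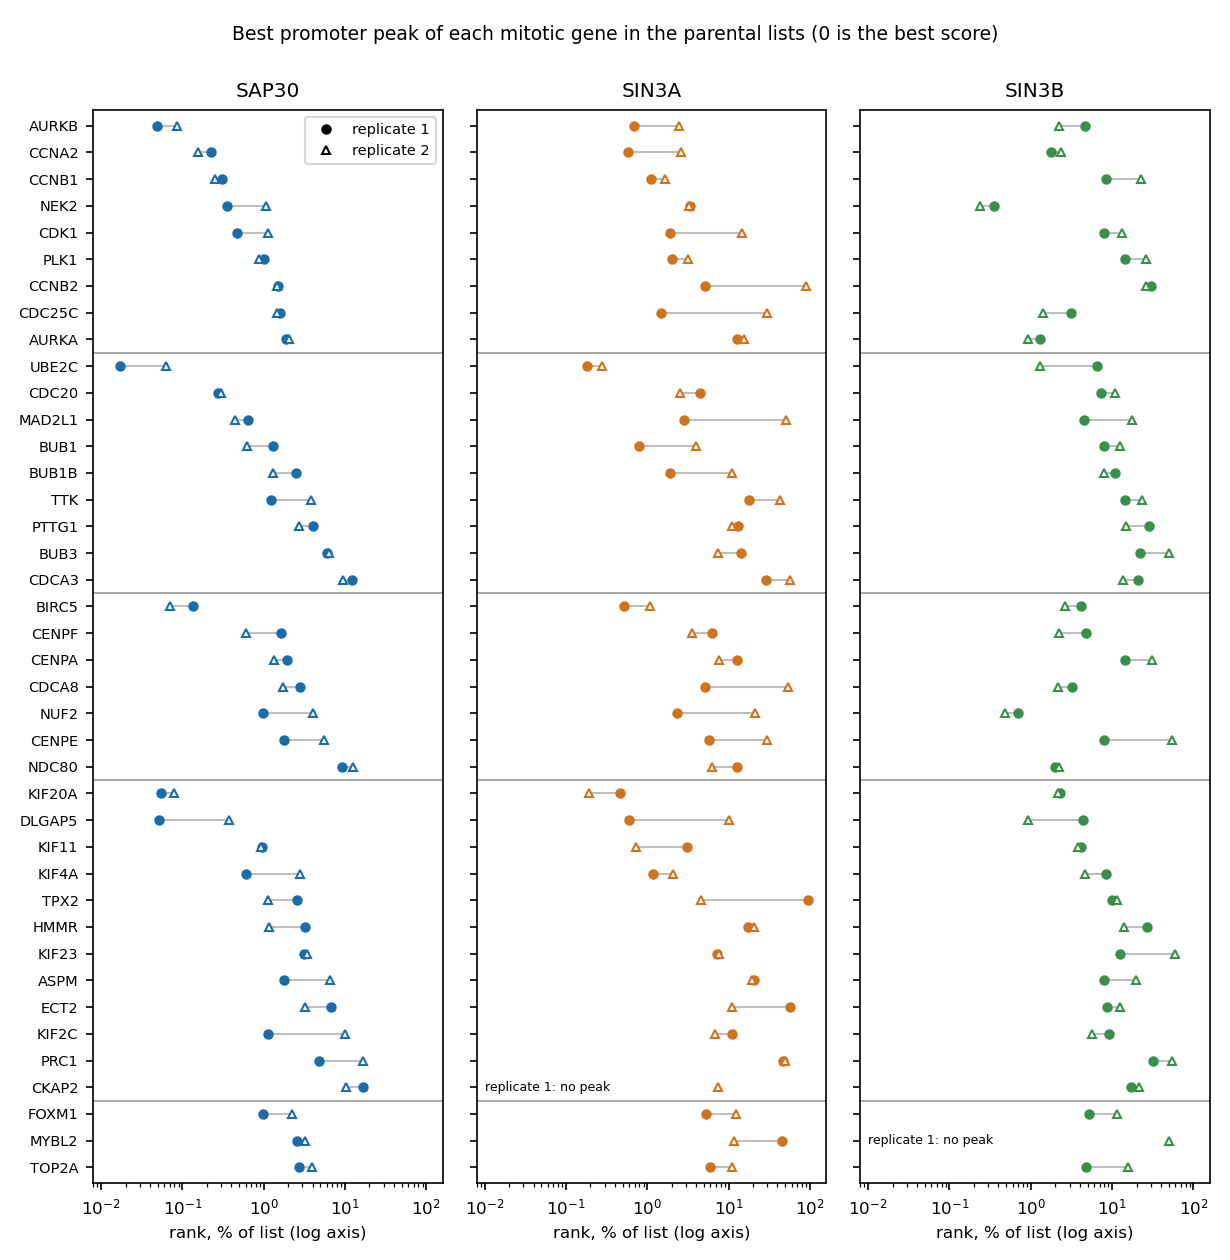
Rank of the best promoter peak of each member in the 2 parental libraries of SAP30, SIN3A and SIN3B, in percent of the list on a log axis, where smaller is better. Genes are in rows by role and SAP30 rank, filled circles are replicate 1 and open triangles replicate 2, and the SAP30 points run from 0.0171% at UBE2C to 16.6% at PRC1 while SIN3A points reach 94.9% at TPX2.

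Among the cyclins and kinases, all 9 genes had all 3 proteins in both libraries and all 9 were in the best 10% of both SAP30 lists. CCNB1, the cyclin that activates CDK1 at mitotic entry, had SAP30 at 0.306% and 0.254% in replicates 1 and 2, SIN3A at 1.12% and 1.64% and SIN3B at 8.32% and 22.9%. CCNA2, the cyclin of S and G2 phase, had SAP30 at 0.227% and 0.154%, SIN3A at 0.585% and 2.59% and SIN3B at 1.75% and 2.32%. For both cyclins the SAP30 ranks of the 2 libraries were close, and SIN3B ranked far lower at CCNB1 than at CCNA2 with no overlap. At CCNB2, the second B-type cyclin, SAP30 stood at 1.501% and 1.44% but the 2 SIN3A libraries differed widely, at 5.17% and 90.9%. CDK1, the mitotic kinase itself, had SAP30 at 0.467% and 1.14%, SIN3A at 1.91% and 14.8% and SIN3B at 7.89% and 13.4%. PLK1, the polo-like kinase that acts at centrosomes and kinetochores, had SAP30 at 1.01% and 0.887% and SIN3B at 14.5% and 26.0%.

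The remaining genes of this role differed in both SIN3A and SIN3B. AURKB, the kinase of the chromosomal passenger complex, had the best mean SAP30 rank of this role at 0.0486% and 0.0857%, with SIN3A at 0.679% and 2.43% and SIN3B at 4.65% and 2.21%. AURKA, the centrosome kinase, had SIN3B at 1.31% and 0.933% and SIN3A at 12.7% and 15.4%, which are percentages of lists of unlike length. NEK2, which separates centrosomes, had the best mean SIN3B rank of all 40 members, at 0.353% and 0.2399%, beside SAP30 at 0.356% and 1.07% and SIN3A at 3.32% and 3.24%. CDC25C, the phosphatase that releases CDK1 from inhibition, had SIN3B at 3.12% and 1.41% and SIN3A at 1.48% and 29.8%. These summits lay at the canonical start of CDC25C, away from an upstream alternative start that faces FAM53C at 89 bp. The AURKA start lies 308 bp from that of CSTF1, so there a peak cannot be assigned to 1 gene.

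Of the 9 checkpoint and anaphase genes, all had all 3 proteins in both libraries and 8 were in the best 10% of both SAP30 lists, but only UBE2C was in the best 10% of both SIN3B lists. UBE2C, the ubiquitin-conjugating enzyme of the anaphase promoting complex, had the best SAP30 rank of all members at 0.0171% and 0.0629% and the best mean SIN3A rank at 0.18% and 0.276%, with SIN3B at 6.59% and 1.301%. CDC20, the activator of that complex, had SAP30 at 0.271% and 0.301% and SIN3A at 4.52% and 2.54%. The checkpoint kinase BUB1 had SAP30 at 1.299% and 0.617% and SIN3A at 0.792% and 3.93%, and its partner BUB1B had 2.49% and 1.29% and 1.91% and 10.9%. TTK, the kinase at the top of the checkpoint, had a weaker SIN3A peak at 17.9% and 42.98%. MAD2L1, which holds CDC20 inactive, had SAP30 at 0.649% and 0.4399% while its SIN3A libraries disagreed at 2.87% and 51.3%. The weakest SAP30 ranks of this role were at CDCA3, at 12.4% and 9.37%, and at BUB3, at 5.95% and 6.45%, and securin (PTTG1), whose removal frees the sister chromatids, had 4.02% and 2.75%.

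The 7 centromere and kinetochore genes all had the 3 proteins, and 5 of them were in the best 10% of both SIN3B lists. BIRC5, the survivin subunit of the chromosomal passenger complex, had SAP30 at 0.134% and 0.0714%, SIN3A at 0.513% and 1.09% and SIN3B at 4.14% and 2.64%. NUF2, a subunit of the NDC80 complex that grips microtubules, had one of the best SIN3B ranks at 0.688% and 0.482%, with SIN3A at 2.29% and 21.4%. NDC80, its partner, had SIN3B at 1.97% and 2.21% but the weakest SAP30 ranks of the role at 9.197% and 12.6%. Both stand beside another start site, RGS5 at 109 bp from NUF2 and METTL4 at 48 bp from NDC80. CENPF, CENPA and CENPE, proteins of the centromere and outer kinetochore, had SAP30 at 1.64% and 0.611%, at 1.94% and 1.35% and at 1.77% and 5.502%. CDCA8, the borealin subunit of the passenger complex, had SAP30 at 2.84% and 1.74% and SIN3B at 3.197% and 2.14%, while its SIN3A libraries stood at 5.14% and 54.5% with the second summit at -800 bp from the start.

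Motors and spindle genes spanned the whole range. KIF20A, the kinesin of the central spindle, had SAP30 at 0.0543% and 0.07999%, SIN3A at 0.459% and 0.193% and SIN3B at 2.28% and 2.14%, close in every pair of libraries. DLGAP5, which stabilises spindle fibres, had SAP30 at 0.0514% and 0.371%. KIF11, the motor that separates the spindle poles, had SAP30 at 0.959% and 0.928% and SIN3A at 3.05% and 0.718%, all at its canonical start and not at the alternative start that lies 9 bp from IDE. The chromosome kinesin KIF4A had SAP30 at 0.606% and 2.81% and SIN3A at 1.18% and 2.095%. KIF2C, which shortens microtubules, had SAP30 at 1.14% and 10.1%, a wide gap between replicates. KIF23, a motor of the midbody, had SAP30 at 3.18% and 3.38% and its SIN3B libraries differed at 12.4% and 58.6%.

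The other genes of this role act at the spindle poles, on microtubules and in cytokinesis. TPX2, which activates AURKA on the spindle, had SAP30 at 2.58% and 1.12% and its SIN3A ranks were the most discordant of any member at 94.9% and 4.58%. ASPM and HMMR, both spindle pole proteins, had SIN3A at 20.6% and 19.4% and at 17.4% and 20.7%. The HMMR SIN3A ranks came from different summits, at -688 bp from the canonical start in replicate 1 and at 58 bp in replicate 2. The first lay 111 bp from the NUDCD2 start, and the SIN3B summits of HMMR lay 113 and 56 bp from it. ECT2, the exchange factor that starts the cleavage furrow, had SIN3A at 57.3% and 10.9%. PRC1, which bundles the central spindle, ranked worse than the median of all genes with a peak for both SIN3 proteins in both libraries, with SAP30 at 4.803% and 16.6%, SIN3A at 46.4% and 49.02% and SIN3B at 32.2% and 53.9%. CKAP2, a microtubule-binding protein, was the member without SIN3A in both libraries. It had no SIN3A peak in replicate 1 and a rank of 7.43% in replicate 2, with SAP30 at 16.4% and 10.4% and SIN3B at 17.1% and 21.3%.

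Among the 3 remaining genes, FOXM1, the forkhead factor that activates mitotic genes, had SAP30 at 0.98% and 2.21% and TOP2A, the topoisomerase that untangles chromosomes, at 2.72% and 3.88%. MYBL2, the Myb factor that joins the MuvB core, was the member without SIN3B in both libraries. It had no SIN3B peak in replicate 1 and a rank of 50.2% in replicate 2, although SAP30 stood at 2.56% and 3.21% and SIN3A at 45.8% and 11.5%. FOXM1 shares its promoter with RHNO1, whose start lies 25 bp away. In all, 10 of 40 members had the start of another protein-coding gene within 1000 bp of any of their starts, the others being KIF20A with BRD8, KIF4A with PDZD11, HMMR with NUDCD2 and CDCA3 with USP5. At CDC25C and KIF11 the neighbour stands at an alternative start, so that the SAP30, SIN3A and SIN3B summits of 8 members lay within 1000 bp of another coding start. Among the 30 members with no such neighbour, 30 had SAP30, 29 SIN3A and 29 SIN3B in both libraries.

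**Figure D3:**
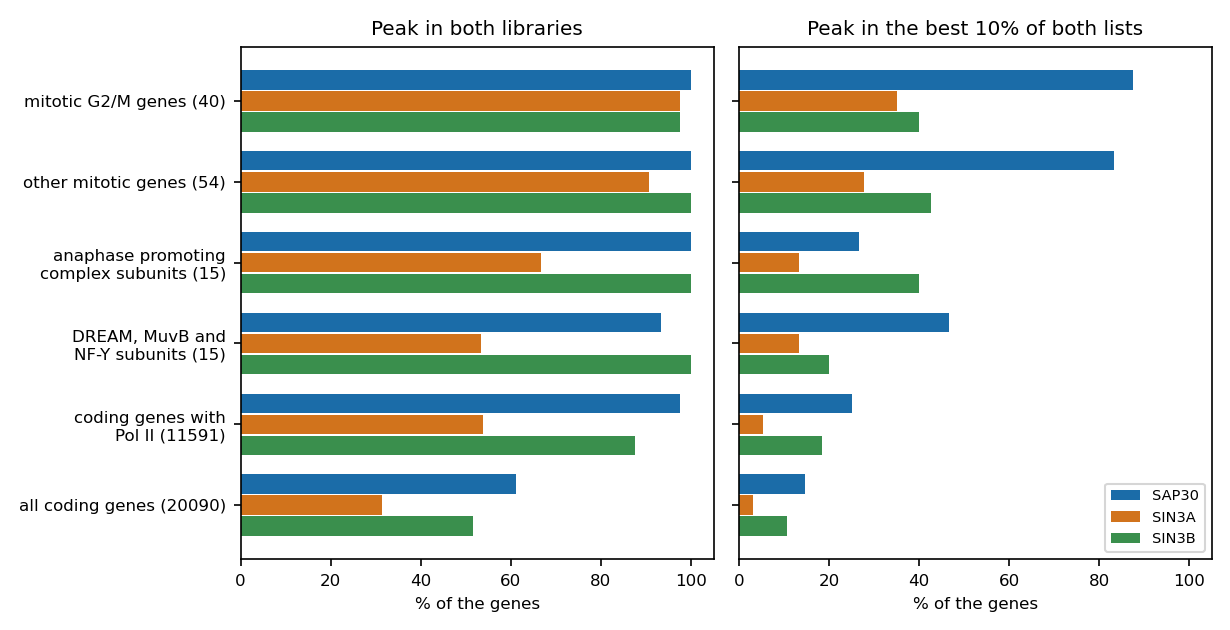
Share of genes with a peak in both parental libraries (left) and in the best 10% of both lists (right), in percent of each gene list, for SAP30, SIN3A and SIN3B. The number of genes is in brackets, and the 40 mitotic genes reach 87.5% for SAP30 on the right, against 14.7% of all protein-coding genes.

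The same measures were taken for 3 neighbouring lists. Of 54 other mitotic genes, 54 had SAP30, 49 SIN3A and 54 SIN3B in both libraries, and 45 were in the best 10% of both SAP30 lists, shares close to those of the 40 members. The subunits of the anaphase promoting complex had SAP30 at 15 of 15 promoters but SIN3A at 10 and only 4 in the best 10% of both SAP30 lists. The subunits of DREAM, MuvB and NF-Y had SAP30 at 14 of 15, SIN3A at 8 and SIN3B at 15. SIN3B in both libraries without SIN3A in either was seen at KNSTRN among the other mitotic genes, at ANAPC15 and ANAPC16, and at TFDP1, NFYA, NFYB and NFYC, the last 3 encoding the whole of NF-Y. No difference between lists was tested.

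The peaks of the 3 proteins coincided. At the members 95.0% of SAP30 summits in each library lay within 250 bp of the nearest start, against 74.9% and 73.5% over all genes with a peak. The corresponding shares were 94.9% and 87.5% for SIN3A and 94.9% and 85.0% for SIN3B. SAP30 and SIN3A summits were separated by a median of 32 bp in replicate 1 and 35 bp in replicate 2, against 74 and 75 bp over all genes with both. SAP30 and SIN3B summits were 53 and 71 bp apart, against 148 and 140 bp. The SAP30 summits of the 2 libraries themselves lay 20 bp apart at the members and 53 bp apart over all genes. In the 27 promoters with a homology region, the median distance from the summit to the nearest such element was 50 bp for SAP30, 54 bp for SIN3A and 94 bp for SIN3B. By median, the members without an exact homology region did not rank worse where they had a peak. Their median rank was 0.835% for SAP30 over 6 genes, against 1.89% over the 27 with the element, and for SIN3A it was 2.36% against 9.42% and for SIN3B 3.43% against 10.56%, each over 5 genes with a peak in both libraries and the same 27. The SIN3A median leaves out CKAP2 and the SIN3B median MYBL2, the only members without that protein in both libraries. For AURKB and CKAP2 the window misses the canonical start, so the element may be present outside it. These medians were not tested.

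**Figure D4:**
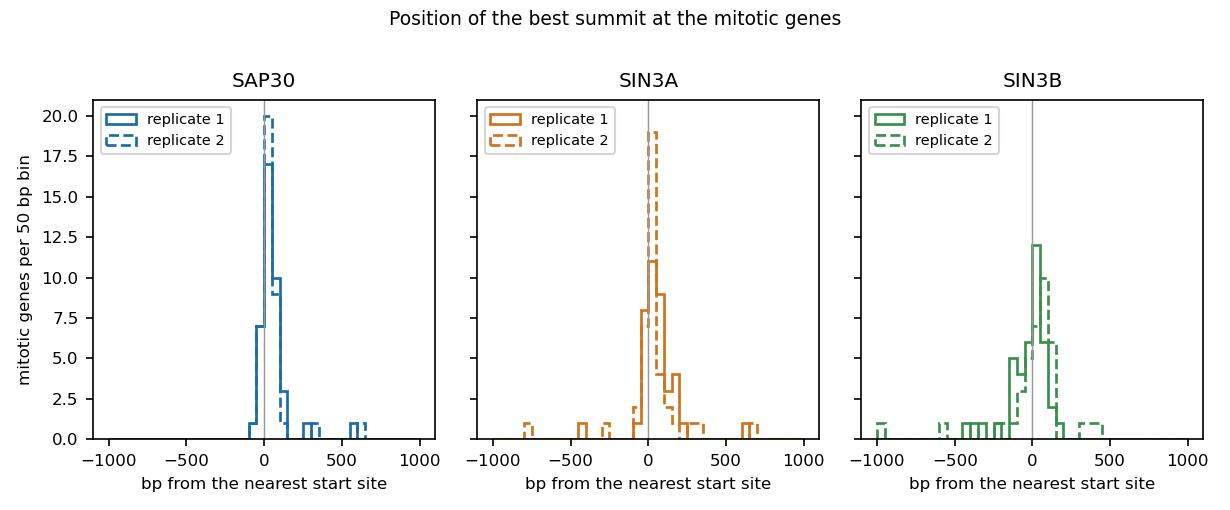
Distance of the best summit of each member from its nearest start site, in bp, negative upstream, counted in bins of 50 bp for SAP30, SIN3A and SIN3B. Solid lines are replicate 1 and dashed lines replicate 2, and most summits stand within 250 bp of the start, with the BUB3 summits of SAP30 (598 and 633 bp) and SIN3A (610 and 664 bp) downstream of it.

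Across the members, the mean ranks of SAP30 and SIN3A varied together (Spearman 0.687 over 39 genes), more than those of SAP30 and SIN3B (0.426) or SIN3A and SIN3B (0.436). SAP30 rank bore little relation to H3K4me3 (0.0762) or H3K9Ac (0.0794) and a weak one to Pol II (0.304, each over 40 genes). The 2 histone marks followed each other (0.674). SAP30 and SIN3A shared their input libraries per the labels, and the replicate agreement was itself limited, at 0.754 for SAP30, 0.508 for SIN3A and 0.789 for SIN3B. These values describe the 40 genes of 1 cell line and carry no test.

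The knockout comparison asked whether the ranks of Pol II and the 2 active marks at these promoters changed in SAP30-KO1 cells. Ranks are relative to their own list, so a change shared by most promoters would not show. The median Pol II score of a list was 14.0 and 15.5 in parental cells and 7.21 and 5.80 in SAP30-KO1 cells. For H3K4me3 and H3K9Ac the median scores of the 2 lines overlapped. Scores depend on depth, which is unknown, and these were not tested. No member lost a mark, in the sense of having it in both parental lists and in neither SAP30-KO1 list. A gain could not occur, since all 40 members had each mark in both parental lists. Among all genes with Pol II in both parental libraries a loss was also rare, at 2.33% of them for Pol II, at 0.155% for H3K4me3 and at 0.198% for H3K9Ac, and 0.0863% gained H3K4me3 and likewise 0.0863% H3K9Ac. H3K4me3 and H3K9Ac were present in all 4 lists at 40 of 40 members, against 97.8% and 97.4% of those genes, and Pol II at 39 of 40, against 92.3%, so these counts were close to the background. The exception was MYBL2, which had Pol II ranks of 59.5% and 51.5% in the parental lists, no peak in SAP30-KO1 replicate 1 and 64.2% in replicate 2. Among the neighbouring lists, LMNB1 had Pol II in both SAP30-KO1 libraries and in neither parental one.

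With limma, fitted over all protein-coding genes with a peak in all 4 lists on normal scores of the ranks, 0 of 39 members were called for Pol II in either direction at an adjusted p under 0.05, and 0 of 40 for H3K4me3 and for H3K9Ac. Over all genes the calls were also few. Pol II had 0% of 10702 genes called higher and 0% lower, H3K4me3 had 0.12% of 12527 called higher and 0.216% lower, and H3K9Ac had 0.0083% of 12044 called higher and 0% lower. At an unadjusted p under 0.05, 2 members were higher and 0 lower for Pol II, 0 higher and 3 lower for H3K4me3, and 0 higher and 3 lower for H3K9Ac. Of all genes tested, 4.42% were higher and 4.87% lower in Pol II at that p, 4.19% and 4.54% in H3K4me3, and 4.13% and 4.48% in H3K9Ac, so that the members' counts were near the background. With 2 libraries a group, changes of the size of the replicate spread cannot be seen, and these counts do not show that the marks were equal.

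Over the whole list, the shift in rank was small. The median change of the members from parental to SAP30-KO1 cells was -0.65 percentage points in Pol II, 2.24 in H3K4me3 and 0.20 in H3K9Ac, where a positive value is a worse rank in SAP30-KO1. Over all genes tested it was 1.48, 2.09 and 0.31. The sign for Pol II turned to 1.70 without parental replicate 1 and that for H3K9Ac to -0.20 without SAP30-KO1 replicate 2, and the H3K4me3 value was 0.0797 without parental replicate 1 and 4.88 without parental replicate 2. These medians thus rested on single libraries, and that of H3K9Ac also on list length. The Pol II median over all genes moved as well, from 0.0997 without SAP30-KO1 replicate 2 to 2.86 without parental replicate 1. It stayed above that of the members whichever library was left out. For the 2 histone marks the members lay on either side of all genes, and none of this was tested. Single libraries were then compared. The 2 parental Pol II libraries differed by a median of 7.23 points at the members and the SAP30-KO1 libraries by 11.1, while the 4 pairs of 1 parental and 1 SAP30-KO1 library differed by 5.70 to 8.80. For H3K4me3 the gaps were 7.93 and 7.71 within a line and 5.31 to 8.81 between lines, and for H3K9Ac 2.58 and 2.50 within and 2.24 to 3.90 between lines. Libraries of different lines were thus about as far apart at the members as libraries of the same line.

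The members with the best SIN3A or SIN3B peaks were followed through the knockout in all 3 marks, with ranks given for replicates 1 and 2 of each line. UBE2C went from 13.2% and 18.9% to 4.002% and 5.35% for Pol II, from 18.3% and 10.6% to 2.38% and 4.801% for H3K4me3 and from 0.597% and 0.223% to 0.443% and 1.07% for H3K9Ac. Its Pol II and H3K4me3 ranks did not overlap between lines, and H3K9Ac did. KIF20A went from 10.9% and 16.4% to 20.2% and 5.74% for Pol II, from 15.7% and 30.5% to 19.7% and 16.6% for H3K4me3 and from 6.55% and 13.6% to 4.26% and 6.41% for H3K9Ac, without overlap only in H3K9Ac. For both histone marks, and for Pol II in SAP30-KO1, its scored summits lay nearer to the BRD8 start than to its own canonical start. BIRC5 went from 20.4% and 35.5% to 43.8% and 29.96% for Pol II, from 3.904% and 10.9% to 4.55% and 8.99% for H3K4me3 and from 3.1% and 1.24% to 1.74% and 1.098% for H3K9Ac, with overlap in each. At CCNB1 the ranks went from 20.3% and 13.04% to 10.1% and 28.1% for Pol II, from 10.2% and 18.2% to 16.2% and 26.7% for H3K4me3 and from 3.46% and 2.29% to 7.38% and 11.9% for H3K9Ac, and only those of H3K9Ac were apart. NEK2 had ranks that went from 35.2% and 8.01% to 36.4% and 3.55% for Pol II, from 21.1% and 8.97% to 25.6% and 22.6% for H3K4me3 and from 15.99% and 16.1% to 26.6% and 21.3% for H3K9Ac, worse in both histone marks. NUF2 went from 32.2% and 44.8% to 17.0% and 28.1% for Pol II, from 21.9% and 30.02% to 49.4% and 38.9% for H3K4me3 and from 9.42% and 3.39% to 10.9% and 8.097% for H3K9Ac, better for Pol II and worse for H3K4me3 without overlap, and with overlap in H3K9Ac. For AURKA they went from 34.98% and 17.6% to 39.9% and 21.6% for Pol II, from 18.5% and 10.6% to 7.54% and 12.6% for H3K4me3 and from 3.62% and 0.529% to 1.27% and 5.96% for H3K9Ac, all overlapping, and the same held for CCNA2, which went from 16.1% and 23.4% to 18.7% and 42.05% for Pol II, from 13.9% and 15.5% to 12.4% and 17.7% for H3K4me3 and from 13.8% and 17.3% to 15.6% and 7.92% for H3K9Ac. Of the members short of 1 SIN3 protein, CKAP2 went from 28.6% and 21.2% to 14.3% and 22.7% for Pol II, from 26.1% and 34.1% to 27.4% and 37.6% for H3K4me3 and from 8.99% and 12.9% to 12.6% and 7.77% for H3K9Ac, with overlap in each mark. MYBL2, whose Pol II values are above, went from 50.02% and 51.3% to 60.9% and 55.3% for H3K4me3, which put it among the worst ranked members before and after the knockout.

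For Pol II, 9 of 39 members had both SAP30-KO1 ranks better than both parental ranks, against 15.4% of all genes, and 2 had both worse, against 24.2%. The 9 were CDCA8, NUF2, TPX2, UBE2C, KIF23, CENPF, ECT2, BUB3 and CDC25C. At ECT2 different summits were compared, at 67 and 79 bp from the canonical start in the parental lists and at -409 and -405 bp in the SAP30-KO1 lists. The marks at CDC25C were scored at its upstream start, with Pol II summits between -6519 and -6493 bp from the canonical start and within 1000 bp of that of FAM53C. With the canonical start alone, where its SAP30 and SIN3 summits lie, CDC25C had Pol II ranks of 35.7% and 36.8% before the knockout and 18.7% and 8.65% after it, H3K4me3 ranks of 24.9% and 35.2% against 38.6% and 35.6%, and H3K9Ac ranks of 9.38% and 16.7% against 24.1% and 16.5%. The Pol II and H3K4me3 ranks kept their order there and those of H3K9Ac overlapped. CDCA8 had ranks of 57.7% and 39.02% before the knockout and 25.2% and 22.7% after it, the largest shift to a better rank among them, and a limma effect of 1.25 ± 0.47 (SE) normal-score units with an adjusted p of 0.35. At NUF2 the ranks went from 32.2% and 44.8% to 17.0% and 28.1%, and at TPX2 from 35.8% and 27.4% to 9.54% and 23.9%. UBE2C went from 13.2% and 18.9% to 4.002% and 5.35%, with a narrow spread in the SAP30-KO1 lists and an adjusted limma p of 0.435. The 2 genes with worse ranks were BUB1B, with 50.3% and 41.3% before the knockout and 85.2% and 83.3% after it, and DLGAP5, with 19.96% and 17.7% before the knockout and 20.2% and 37.7% after it. At DLGAP5 the lines were thus apart by a narrow margin. Its summits lay at -274 and -256 bp from the canonical start in the parental lists, and at 40 and -212 bp in SAP30-KO1. BUB1B had the largest change of any member, and its limma effect of -0.86 ± 0.52 had an adjusted p of 0.64.

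For H3K4me3, 5 of 40 members had better ranks without overlap, against 11.5% of all genes, and 11 had worse ranks, against 28.2%, so both shares were near the background. BUB1 went from 28.1% and 26.8% to 12.9% and 14.4%, CDC20 from 26.4% and 24.2% to 2.74% and 21.1% and UBE2C from 18.3% and 10.6% to 2.38% and 4.801%. KIF2C went from 23.03% and 17.8% to 5.56% and 13.9%, and CDCA3 was the fifth. Of these 5, 4 were grouped here with the 9 checkpoint and anaphase genes and 1 with the motors, a split that was seen and not tested. The 4 include CDCA3, whose place in that group is loose. The genes with worse ranks were CDK1, PLK1, NEK2, CDC25C, MAD2L1, CENPA, CENPE, NUF2, KIF23, ASPM and MYBL2. NUF2 had 21.9% and 30.02% before the knockout and 49.4% and 38.9% after it, with a limma effect of -0.74 ± 0.21 and an adjusted p of 0.204, the smallest of any member. Its summits lay at 129 and 144 bp from the canonical start in the parental lists. In SAP30-KO1 they lay at -502 and 152 bp, so the rank of 49.4% belongs to a different summit. CENPE went from 14.9% and 18.2% to 41.4% and 28.5% and MAD2L1 from 29.1% and 28.01% to 44.8% and 39.1%, with adjusted p of 0.443 and 0.43 by limma. At KIF23 the ranks went from 4.92% and 5.43% to 28.5% and 7.99%, so that its change came largely from 1 SAP30-KO1 library.

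For H3K9Ac, 4 of 40 members had better ranks without overlap, against 16.4% of all genes, and 11 worse ranks, against 22.1%, or 10 with the canonical start alone, where CDC25C drops out. The 4 were CDCA3, which went from 15.8% and 18.2% to 12.5% and 11.2%, KIF20A, which went from 6.55% and 13.6% to 4.26% and 6.41%, MAD2L1 and KIF2C. All H3K9Ac summits scored for KIF20A lay 189 to 251 bp from the BRD8 start, so they cannot be assigned to KIF20A. MAD2L1 went from 15.7% and 19.8% to 15.2% and 11.1% and KIF2C from 11.5% and 4.68% to 3.07% and 4.17%, both by small margins. At MAD2L1 different summits were compared, at -629 and -543 bp from the canonical start in the parental lists and at 193 and 211 bp in the SAP30-KO1 lists. The 11 were CCNB1, AURKB, NEK2, CDC25C, CENPA, CENPF, KIF4A, DLGAP5, ASPM, HMMR and MYBL2. The HMMR summits lay 146 to 164 bp from the NUDCD2 start, except in SAP30-KO1 replicate 1, at 952 bp. MYBL2 had 28.3% and 28.8% before the knockout and 39.5% and 51.2% after it, DLGAP5 had 10.6% and 12.6% before the knockout and 21.8% and 19.0% after it and ASPM had 7.04% and 5.11% before the knockout and 13.7% and 15.4% after it. NEK2 went from 15.99% and 16.1% to 26.6% and 21.3%. The limma effects were -0.54 ± 0.29 for MYBL2, -0.66 ± 0.29 for DLGAP5 and -0.81 ± 0.33 for ASPM, with adjusted p of 0.617, 0.541 and 0.5. CCNB1, at 3.46% and 2.29% before the knockout and 7.38% and 11.9% after it, had -0.87 ± 0.37 and an adjusted p of 0.516.

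**Figure D5:**
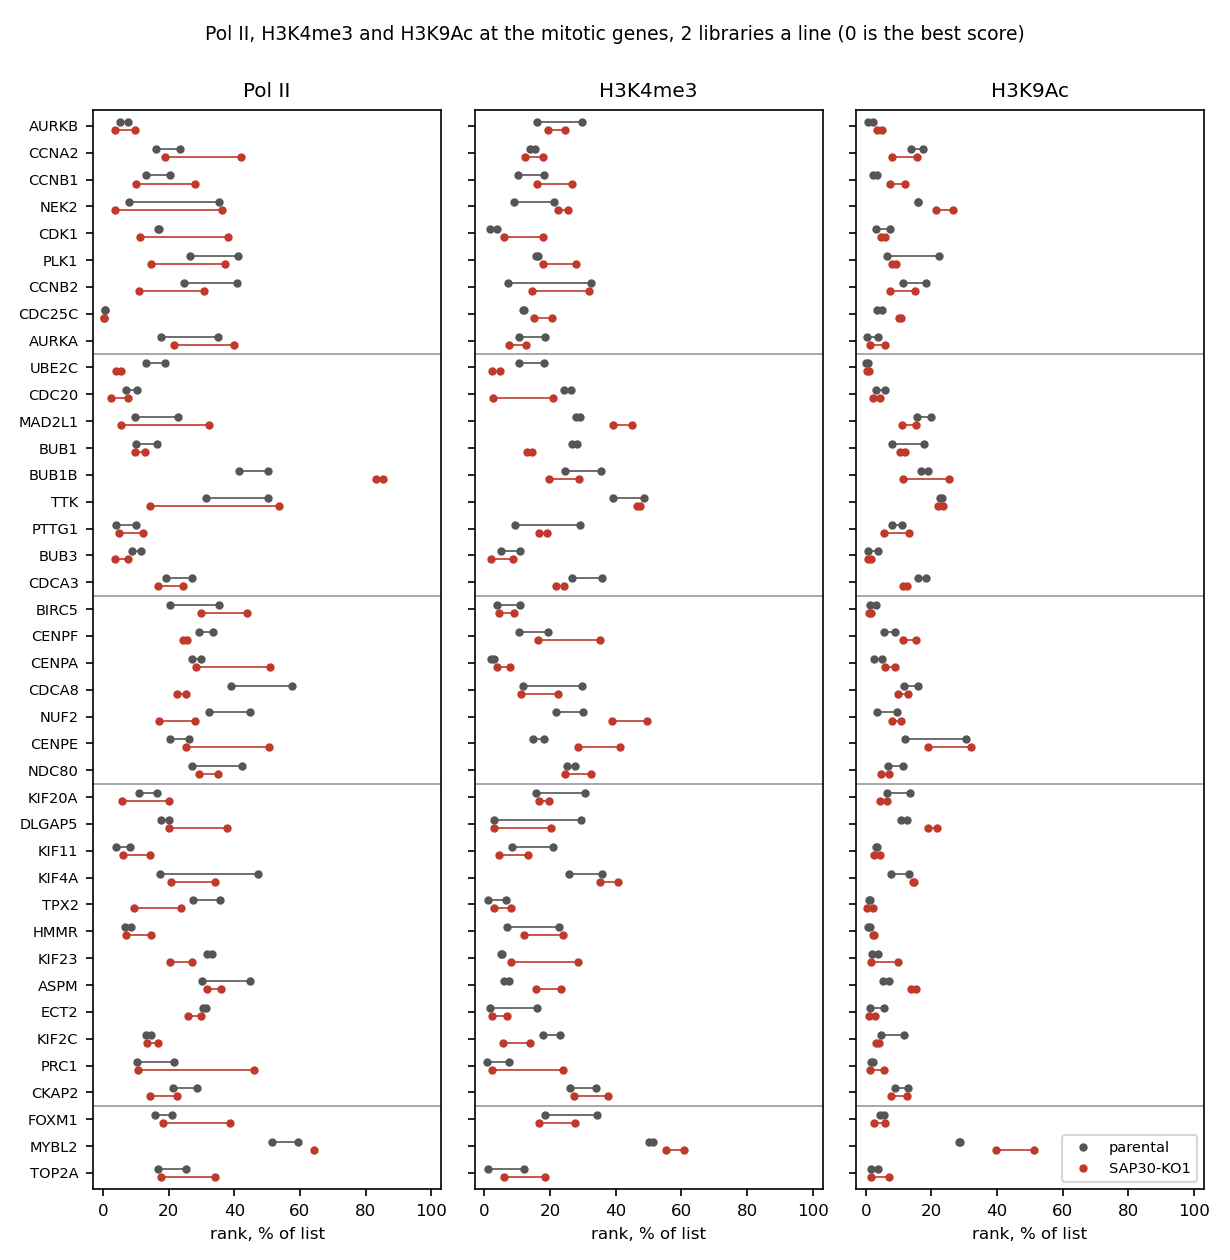
Rank of the best promoter peak of each member for Pol II, H3K4me3 and H3K9Ac, in percent of the list, with parental libraries in grey and SAP30-KO1 libraries in red, 2 points a line joined by a bar. The bars of the 2 lines overlap for most genes, and BUB1B in the Pol II panel, at 83.3% and 85.2% in SAP30-KO1, stands furthest from its parental values.

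Several genes had ranks that went opposite ways in different marks. NUF2, KIF23 and, at its upstream start, CDC25C had better Pol II ranks and worse H3K4me3 ranks in SAP30-KO1, CENPF had better Pol II and worse H3K9Ac ranks, and MAD2L1 had worse H3K4me3 and better H3K9Ac ranks. The H3K9Ac ranks of MAD2L1 belong to different summits in the parental and SAP30-KO1 lists. For NUF2 the H3K4me3 rank of SAP30-KO1 replicate 1 also belongs to a different summit. The KIF23 Pol II summits lay at 24 and 51 bp from the canonical start in the parental lists, and at 73 and 590 bp in SAP30-KO1. The ranks went the same way at UBE2C, better for Pol II and H3K4me3, at KIF2C and CDCA3, better for both histone marks, and at DLGAP5, worse for Pol II and H3K9Ac. The Pol II ranks of DLGAP5 were apart by a narrow margin only. CDC25C (at the upstream start), NEK2, CENPA, ASPM and MYBL2 had worse ranks in both histone marks. None of these changes passed the adjusted test, and whether they differ between marks was not tested.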

How the data were processed

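The authors deposited, for each of 18 ChIP-Seq libraries, a list of peak summits with a score in −log10 of the q-value as MACS2 writes it. The submitters' processing notes name FastQC 0.11.2, Bowtie2 2.3.3.1, Picard, MACS2 2.1.0 and the build hg19. Which control each list was called against is not given in the sources used here, and 12 input and histone H3 samples were not analysed here. Total reads are unknown, so precision rests on the 2 libraries of each group.

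Summits were assigned to start sites of GENCODE 44 basic transcripts on GRCh37 (1 gene per symbol, chromosomes 1 to 22 and X) within 1000 bp, and scores were ranked within each list. The best summit of a gene could lie at a different place in each list, so a rank change may compare different summits. A worse rank in SAP30-KO1 lowers the normal score. For each mark the 4 lists were fitted with limma 3.58.1 in R 4.3.3 (lmFit and eBayes with trend, Benjamini-Hochberg over all genes tested), after a test on simulated data. The p-values measure only the spread between these libraries. The members, their roles and the neighbouring lists were chosen with earlier results of these data known. All 40 members are named. Values by library are given for members lacking SIN3A or SIN3B, for the 4 best SIN3A and the 4 best SIN3B ranks and, for each mark, for the 4 members with the largest change in each direction among those without overlap; the role paragraphs add others chosen after their values were seen. Alternatives covered the window, the start sites, list length, missing peaks, the score scale, the replicate block and each library left out.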

Additional observations from a re-analysis of the deposited data

How the results depend on the processing

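SAP30, SIN3A and SIN3B counts at the members stayed within 1.5 times of those reported under the 27 alternatives run for them, which included 30, 29 and 29 of the 30 members with no other coding start within 1000 bp, an alternative chosen after seeing the data. The count of members with SIN3B and without SIN3A was 0 in the report, 1 with a window of 500 bp (BUB3), and 0 to 1 with a replicate left out, where CKAP2 entered on replicate 1 alone.

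In all 72 alternatives of the limma counts, 0 members were called higher or lower for any mark. That includes the replicate block, in which 0 members were called although 28 and 33 genes were called higher and lower for Pol II, 79 and 93 for H3K4me3 and 20 and 21 for H3K9Ac. The smallest adjusted p of a member under the block was 0.264, 0.0589 and 0.413. Deviations of libraries with the same number correlated at 0.01, -0.02 and -0.01 over all genes, which gave no sign of pairing by number. At the members they correlated at 0.09, -0.21 and -0.36. These values cannot show whether libraries with the same number were prepared together. Over all genes, the H3K4me3 calls (15 higher and 27 lower) ranged with the setting from 3 to 79 higher and from 5 to 93 lower, those of Pol II (0 and 0) reached 39 and 83, and those of H3K9Ac (1 and 0) reached 20 and 21.

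The median change of members in H3K4me3, 2.24 points, was 1.04 with lists of equal length and ranged from 0.0797 to 4.88 when 1 library was left out, with the lowest without parental replicate 1 and the highest without parental replicate 2. For Pol II the range was -1.93 to 1.70, which spans 0, and for H3K9Ac -0.20 to 0.48. With lists of equal length the H3K9Ac value was also -0.20, against -0.23 over all genes. With a library left out, 1 line keeps a single library, which is assumed to vary like the other. With the canonical start alone, also chosen after seeing the data, the counts of members without overlap were unaltered except that 10 rather than 11 had worse H3K9Ac ranks. Depth is unknown, and weak peaks near the end of a list carry the least certain ranks.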
